A study of Mus musculus with 8 samples.

Results

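The genes described here are Nfe2l2, which encodes the transcription factor NRF2, its inhibitor gene Keap1, and 8 genes known as NRF2 targets that serve antioxidant defence: Nqo1, Hmox1, Gclc, Gclm, Srxn1, Txnrd1, Gsr and Osgin1. The 10 members were given as a list of symbols and were matched to array rows annotated with exactly 1 symbol. All 10 had a row, out of 22180 named genes, and all 10 lay above the filter on dim genes, out of 15380 genes tested. Keap1 was the 1 member with more than 1 row, and its row of highest mean was kept.

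Expression was measured in primary hepatocytes, the parenchymal cells of the liver, freed by collagenase perfusion from p16+/+ mice (wild type) and their p16-/- littermates (knockout), with 4 samples and 4 arrays in each group. p16 is an inhibitor of cyclin-dependent kinases encoded by Cdkn2a. Both groups were cultured alike: cells attached overnight in medium that held 25 nM dexamethasone, 10% FBS and insulin at 100 nM, were moved at 16 h to medium with 1 mM glucose and 0.1% BSA for 8 h, and gave RNA at 24 h. The sources used here do not give the age or sex of the mice, the extent of the deletion or whether each sample came from its own animal. The sample titles call the replicates biological without saying what was repeated. The p-values therefore cover only the spread among these cultures, which may not be the spread among animals.

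NRF2 is held at a low level in resting cells because KEAP1, an adaptor of the CUL3 ubiquitin ligase, marks it for degradation. Oxidants and electrophiles modify cysteines of KEAP1, NRF2 then accumulates, pairs with a small MAF protein and binds antioxidant response elements near genes for glutathione synthesis, thioredoxin recycling, quinone reduction and haem breakdown. BACH1 competes for the same elements as a repressor, most clearly at Hmox1. Much of this control acts on the protein, which arrays do not measure. In the liver the pathway protects hepatocytes from reactive drug metabolites.

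The deposited values are on the log2 scale, and a change is the knockout mean minus the wild type mean. Mean Cdkn2a was 4.53 ± 0.28 in wild type and 4.53 ± 0.31 in knockout cells (± SD over 4 arrays here and below), with ranges of 4.16 to 4.79 and 4.27 to 4.91. Which part of the gene its row measures is not known here, so this value does not check the labels. Array medians ran from 3.76 to 3.88. The hepatocyte marker albumin (Alb) was at 13.54 ± 0.03 and 13.57 ± 0.01, so the labelled cell type expressed its defining gene in both groups. Of all genes tested, knockout replicate 4 gave the lowest of the 4 knockout values for 43.5% and the highest for 23.7%. It is described apart for the members.

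Promoter sequences, 250 bases before a transcript start, were taken from RefSeq (GRCm38.p6) for the members with an entry, to show where letters of the antioxidant response element stand in genes whose expression is described below. Of the 10 members 7 had an entry, Txnrd1 with 3 starts; Hmox1, Gclc and Gsr had none. The core TGACNNNGC was searched on both strands and was found in 3 members, Nfe2l2, Gclm and Txnrd1. Forms of the element with another base in place of the C after TGA were not searched. It occurs in 10.2% of all 32851 promoter windows of that length. The whole window of Nfe2l2, the regulator itself, is shown with the core in capitals (chr2:75704664-75704913, minus strand, 5′ to 3′), where the core starts 240 bases before the transcript start.
Nfe2l2: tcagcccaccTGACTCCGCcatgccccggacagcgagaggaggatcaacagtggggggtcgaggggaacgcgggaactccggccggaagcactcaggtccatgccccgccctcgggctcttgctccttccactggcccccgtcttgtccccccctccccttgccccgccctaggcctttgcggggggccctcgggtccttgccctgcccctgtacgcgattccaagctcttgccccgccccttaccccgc

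The cores of the other members are shown with 10 bases on each side, on the strand that carries the core: Gclm at chr3:122245413-122245441, minus strand, and Txnrd1, at the start for which the window held a match, at chr10:82859104-82859132, minus strand. Both genes are read from the plus strand.
Gclm: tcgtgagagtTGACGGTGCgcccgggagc
Txnrd1: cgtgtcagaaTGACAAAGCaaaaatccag

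A related core, TGANTCA, which AP-1 factors and the NF-E2 family share, was searched in the same windows and was found in 2 members, with 2 matches in Srxn1 and 1 in Osgin1. It occurs in 6.75% of all windows. No match of this core in a member overlapped one of the other core. With the bases beside it, however, the Srxn1 match nearer the start reads TGAGTCAGC, and so does the Osgin1 match on the minus strand. That differs from TGACNNNGC only by a G in place of the C after TGA. The members with TGANTCA are therefore not shown to lack an antioxidant response element. The Srxn1 matches lie at chr2:152105412-152105438 and chr2:152105469-152105495 and the Osgin1 match at chr8:119437040-119437066, all printed on the plus strand with 10 bases on each side and the core in capitals.
Srxn1 far: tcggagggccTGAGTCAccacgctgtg
Srxn1 near: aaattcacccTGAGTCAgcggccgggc
Osgin1: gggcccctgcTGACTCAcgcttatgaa

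The windows of Nqo1 and Keap1 held neither core, which says only that these letters are not within 250 bases of the annotated start. Of the 3 members with TGACNNNGC, Nfe2l2 and Txnrd1 fell and Gclm was not called; of the 2 with TGANTCA, Osgin1 fell and Srxn1 was not called. Across all tested genes with a promoter entry, 1621 held TGACNNNGC, of which 122 rose and 120 fell (14.9% called, median change -0.03). TGANTCA was held by 732, of which 60 rose and 49 fell (14.9% called, median change -0.02). Among all 11984 tested genes with an entry 847 rose and 805 fell (13.8% called, median change -0.02).

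The members did not move as a block. Nfe2l2, Nqo1, Txnrd1 and Osgin1 were lower in the knockout, Hmox1 and Gclc were higher, and Keap1, Gclm, Srxn1 and Gsr did not pass the test (limma, adjusted p under 0.05). Thus 6 of 10 members were called, where 13.8% of all genes tested were. Of the members 2 rose, against a background of 7.02% rising, and 4 fell, against 6.76% falling. The share depends on the filter on dim genes. With it raised to the 60th percentile of row means, 2456 of 10903 genes tested and 7 of the 10 members were called. The groups did not overlap for 7 members, namely the 6 called and Keap1, against 20.2% of all genes tested. The median change of the members was -0.03 and that of all genes -0.02, while the median size of change without regard to sign was 0.47 for the members and 0.14 for all genes.

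**Figure D1:**
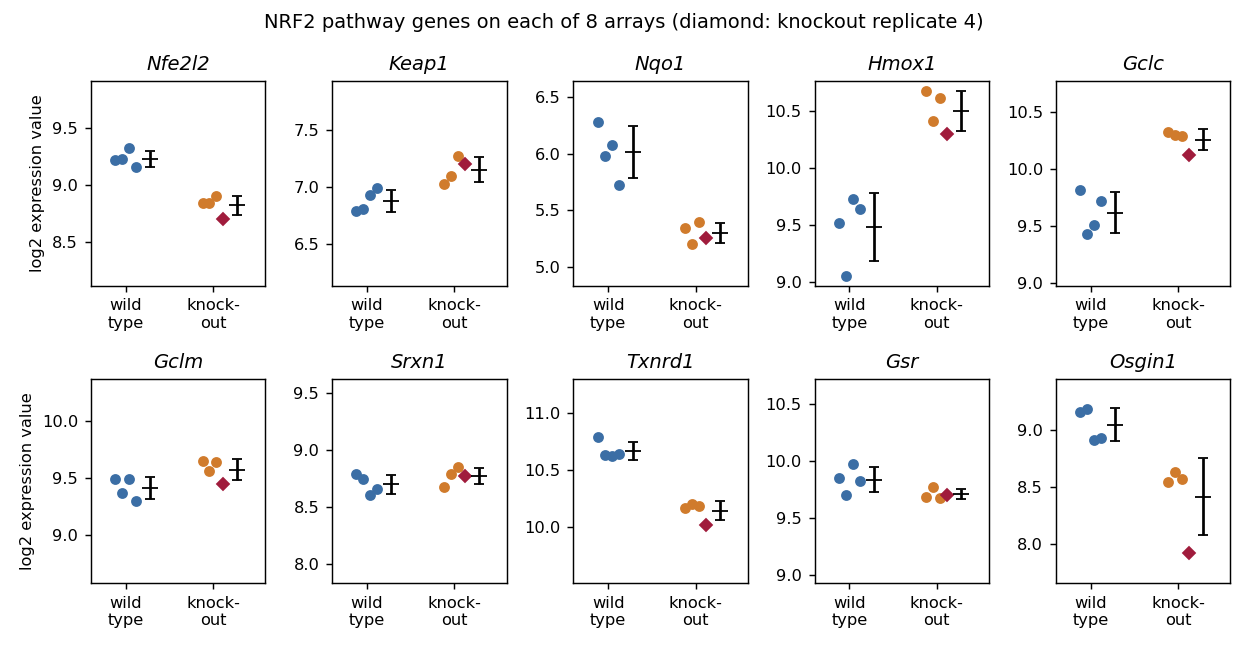
Log2 expression value of each of the 10 members on 4 wild type arrays (blue) and 4 knockout arrays (orange circles, red diamond for replicate 4); the black bar and whiskers give the mean and SD, n = 4, and every panel spans the same length of axis. The groups are apart for Nfe2l2, Keap1, Nqo1, Hmox1, Gclc, Txnrd1 and Osgin1 and overlap for Gclm, Srxn1 and Gsr.

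The regulator is described first. Nfe2l2 was at 9.22, 9.23, 9.33 and 9.16 in wild type replicates 1 to 4 and at 8.84, 8.84, 8.91 and 8.70 in the knockout. All 4 knockout values lay below all wild type values, and the spread within each group (SD 0.07 and 0.09) was small beside the gap. The change was -0.41 (SE 0.09, 95% interval -0.60 to -0.22, adjusted p = 0.00843), or 1.33-fold lower. Without knockout replicate 4, the lowest array, the change was -0.37 (adjusted p = 0.0139).

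Keap1, the inhibitor, stood at 6.79, 6.81, 6.93 and 6.99 in wild type and at 7.03, 7.10, 7.27 and 7.20 in knockout cells. The highest wild type value lay just under the lowest knockout value, so the groups did not overlap. Its change of 0.27 (SE 0.09, 95% interval 0.07 to 0.48) missed the threshold with an adjusted p of 0.0782, and knockout replicate 4 lay within the range of the other knockout arrays. With the filter raised to the 60th percentile of row means, which leaves fewer genes to adjust over, the adjusted p was 0.0453. The other Keap1 row on the array read 6.35 ± 0.17 and 6.44 ± 0.07, a change of 0.08, so the rows of this gene differed in size, and the mean of both rows gave 0.18 (adjusted p = 0.263).

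Other genes that act on NRF2, a list of 15 written for this work, had 14 tested genes, of which 1 rose, 1 fell and 12 did not pass, with a median change of -0.05. That share of 14.3% is near the 13.8% of all genes. The riser was Bach1, the repressor that competes with NRF2. It read 6.74, 6.71, 6.74 and 6.71 in wild type and 7.33, 7.46, 7.37 and 7.30 in knockout cells. Every knockout array was higher than every wild type array, by 0.64 on average (SE 0.08, adjusted p = 3.50e-04). Sqstm1, an autophagy receptor that binds KEAP1 and is itself an NRF2 target, fell by 0.42 (change -0.42, SE 0.08, adjusted p = 0.00667), from 12.09 ± 0.04 to 11.66 ± 0.10. Cul3, the ligase scaffold that KEAP1 docks to, had a change of -0.20 (SE 0.09, adjusted p = 0.165) with overlapping groups. Bach1 and Sqstm1 kept their calls without knockout replicate 4, at 0.66 and -0.39.

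Hmox1 encodes the inducible haem oxygenase, which opens haem to biliverdin, carbon monoxide and iron. It read 9.52, 9.05, 9.73 and 9.64 in wild type and 10.68, 10.42, 10.62 and 10.30 in knockout replicates 1 to 4. Wild type replicate 2 was the lowest and knockout replicate 4 the lowest of its group, still above every wild type array. The rise of 1.02 (SE 0.15, 95% interval 0.69 to 1.35, adjusted p = 9.78e-04), or 2.03-fold, was the largest change in size among the 10 members. Without knockout replicate 4 it was 1.09 (adjusted p = 0.00178).

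Haem and iron genes around Hmox1 went the other way or did not pass. Of 9 tested genes of haem breakdown and iron storage none rose and 3 fell, with a median change of -0.07. They were Blvrb, a biliverdin reductase (-0.43, SE 0.10, adjusted p = 0.0192), Slc48a1, a haem transporter (-0.43, SE 0.11, adjusted p = 0.0222), and Slc40a1, the iron exporter ferroportin (-0.48, SE 0.13, adjusted p = 0.0282). These calls were close to the threshold. That of Blvrb ended without knockout replicate 2 (0.059) or wild type replicate 1 (0.0615), that of Slc48a1 without knockout replicate 3 (0.0509), wild type replicate 1 (0.0713) or 3 (0.0528) and with median centring (0.0541), and that of Slc40a1 without knockout replicates 1 (0.0633) or 2 (0.0724) or wild type replicates 1 (0.0601), 3 (0.0757) or 4 (0.0672), with median centring (0.0535) and with no filter (0.0516). Hmox2, the constitutive haem oxygenase, named after its values were seen, had a change of 0.27 (adjusted p = 0.0697), and without knockout replicate 4 one of 0.32 (adjusted p = 0.0306).

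The genes whose profile over the 8 arrays was most like that of Hmox1, by the root mean square difference of values centred on each gene's mean, were Gpcpd1 (0.0683), the lipin genes Lpin1 (0.0850) and Lpin2 (0.0904), which encode phosphatidate phosphatases, and Fst (0.0994), which encodes follistatin. All 4 were higher in the knockout, with changes of 1.04, 1.05, 1.03 and 0.96. The profile shared by these genes includes the low value of wild type replicate 2, at 7.14 for Gpcpd1 beside 7.63 to 7.76 on the other wild type arrays. They were picked for this likeness, so their direction is a description.

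Nqo1 encodes a quinone reductase and is the target most often used to read NRF2 activity. It read 6.27, 5.98, 6.08 and 5.72 in wild type and 5.34, 5.20, 5.40 and 5.26 in knockout cells. The wild type arrays were spread more widely (SD 0.23) than the knockout arrays (SD 0.09), and all knockout values were lower. The change was -0.71 (SE 0.12, 95% interval -0.97 to -0.45, adjusted p = 0.00218), or 1.64-fold lower, and -0.70 without knockout replicate 4 (adjusted p = 0.00621).

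Osgin1 encodes an oxidative stress-induced growth inhibitor. Wild type arrays read 9.16, 9.19, 8.92 and 8.93 and knockout arrays 8.55, 8.63, 8.57 and 7.92. Knockout replicates 1 to 3 lay close together (SD 0.04), and replicate 4 was 0.67 below their mean. The change was -0.63 (SE 0.15, 95% interval -0.97 to -0.29, adjusted p = 0.0193), or 1.55-fold lower. Without knockout replicate 4 it was smaller, -0.47 (SE 0.10), at an adjusted p of 0.0117. The call ended without wild type replicate 1 (-0.60, adjusted p = 0.0601) or 2 (-0.59, adjusted p = 0.058), the highest wild type arrays.

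Glutathione is made by glutamate-cysteine ligase, whose catalytic subunit is encoded by Gclc and whose modifier subunit by Gclm. Gclc read 9.81, 9.43, 9.51 and 9.72 in wild type and 10.32, 10.30, 10.29 and 10.12 in knockout cells, the last being replicate 4. All knockout arrays were higher, by 0.64 (SE 0.11, 95% interval 0.41 to 0.88, adjusted p = 0.00214), or 1.56-fold, and by 0.69 without replicate 4 (adjusted p = 0.00253). Gclm had ranges of 9.30 to 9.50 in wild type and 9.45 to 9.65 in knockout cells, which overlapped through knockout replicate 4 at 9.45. Its change of 0.16 (SE 0.09, 95% interval -0.04 to 0.36, adjusted p = 0.293) did not pass the test, nor did it without replicate 4 (0.20, SE 0.09, adjusted p = 0.156).

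The subunit genes were also set against each other within arrays. This pair, like that of Txnrd1 and Gsr, was chosen after the values were seen, so its difference is a description with no test. The log2 difference of Gclc minus Gclm was 0.32, 0.05, 0.02 and 0.42 on the wild type arrays and 0.67, 0.73, 0.65 and 0.67 on the knockout arrays, with no overlap. The group means differed by 0.48. Since rows differ in sensitivity, the value on an array is no ratio of transcripts, and only its difference between groups is read.

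Other glutathione genes moved both ways. Of 18 tested, 3 rose, 2 fell and 13 did not pass, with a median change of -0.02. Slc7a11, the cystine importer that feeds glutathione synthesis and a known NRF2 target, read 9.05, 8.86, 8.87 and 8.72 in wild type and 7.51, 7.72, 7.86 and 7.29 in knockout cells. That is a fall by 1.28 (change -1.28, SE 0.13, adjusted p = 7.34e-05), and every knockout array lay below every wild type array. Slc7a11 has more than 1 row, and the mean of its rows gave -0.91 (adjusted p = 0.00113). Chac1, an enzyme that degrades glutathione, rose by 0.65 (SE 0.08, adjusted p = 3.46e-04), and Gpx1, the cytosolic glutathione peroxidase, by 0.52 (SE 0.08, adjusted p = 0.00155). The remaining calls, named after their values were seen, were Oplah, the oxoprolinase of the glutathione cycle (0.75, SE 0.13), and Gpx3, the secreted glutathione peroxidase (-1.11, SE 0.19). Without knockout replicate 4 the count was 3 and 3, the added gene being Gpx8 (-0.52, adjusted p = 0.0228, against -0.42 and 0.067 with all arrays), also named after its values were seen.

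Txnrd1 encodes the cytosolic thioredoxin reductase, a selenoprotein that recycles thioredoxin with NADPH. It read 10.79, 10.63, 10.63 and 10.64 in wild type and 10.17, 10.20, 10.19 and 10.02 in knockout cells. Wild type replicate 1 was the highest and knockout replicate 4 the lowest of all 8, and the groups were well apart. The change was -0.53 (SE 0.09, 95% interval -0.72 to -0.34, adjusted p = 0.00208), or 1.44-fold lower, and -0.49 without knockout replicate 4 (adjusted p = 0.00373).

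Gsr, the glutathione reductase that does the matching task for glutathione, ranged from 9.70 to 9.97 in wild type and from 9.67 to 9.77 in knockout cells. The groups overlapped and the change was -0.13 (SE 0.09, 95% interval -0.32 to 0.06, adjusted p = 0.396). The within-array difference of Txnrd1 minus Gsr was 0.94, 0.93, 0.65 and 0.82 in wild type and 0.48, 0.43, 0.52 and 0.32 in knockout cells. The group means differed by -0.40, again with no overlap. Srxn1, the sulfiredoxin that repairs over-oxidised peroxiredoxins, ranged from 8.61 to 8.79 and from 8.68 to 8.85. Its change of 0.07 (SE 0.09, 95% interval -0.11 to 0.26, adjusted p = 0.647) did not pass the test, and the groups overlapped.

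**Figure D2:**
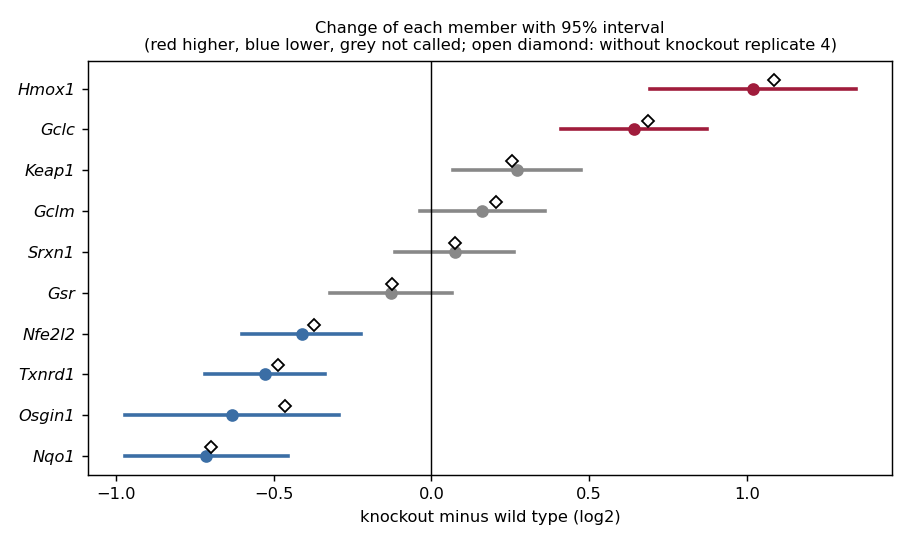
Log2 change of each member, knockout minus wild type, with limma's 95% interval (line) over 4 arrays per group; red and blue mark members called higher and lower, grey those not called, and open diamonds give the change without knockout replicate 4. Hmox1 (1.02) and Gclc (0.64) lie to the right of 0, Nfe2l2 (-0.41), Txnrd1 (-0.53), Osgin1 (-0.63) and Nqo1 (-0.71) to the left.

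Of 15 tested genes of the thioredoxin list 3 rose, 1 fell and 11 did not pass, with a median change of 0.03. The risers were the methionine sulfoxide reductases Msrb1 (0.68, SE 0.10, adjusted p = 9.27e-04) and Msra (0.48, SE 0.08, adjusted p = 0.00297) and the sestrin Sesn1 (0.90, SE 0.17, adjusted p = 0.00555), whose wild type mean of 3.59 lies near the filter at 3.32. Txnip, which binds and inhibits thioredoxin, fell (named after its value was seen; -0.61, SE 0.12, adjusted p = 0.00769). No thioredoxin or peroxiredoxin gene among those tested passed. Prdx1, Prdx5 and Prdx6 had no row of 1 symbol and were not analysed here.

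Knockout replicate 4 was the lowest knockout array for 6 members, Nfe2l2, Hmox1, Gclc, Gclm, Txnrd1 and Osgin1, and the highest for none. Over all genes tested it was the lowest for 43.5% and the highest for 23.7%. Among the members it lay 0.16 to 0.27 below the mean of the other knockout arrays for Nfe2l2, Hmox1, Gclc, Gclm and Txnrd1, and 0.67 below for Osgin1. For risers this brought it nearer to the wild type and for fallers farther away. Without it, all 10 members kept their direction and the same 6 were called, where 14.1% of all genes were (8.05% higher, 6.03% lower); groups did not overlap for 26.8% of all genes.

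Genes of superoxide and peroxide removal, with selenium and metal binding proteins and paraoxonases, were tested as a list of 11. Of these 3 rose and none fell, with a median change of 0.14. The risers were Selenop, the selenium carrier of plasma (0.37, SE 0.08, adjusted p = 0.00931), the paraoxonase Pon1 (0.39, SE 0.09, adjusted p = 0.0178) and the metallothionein Mt2 (0.33, SE 0.08, adjusted p = 0.0239). The genes for catalase (adjusted p = 0.721) and the superoxide dismutases (adjusted p = 0.0616 to 0.364), picked out after their values were seen, were not called. The Pon1 call ended without knockout replicate 1 (0.0586) or wild type replicate 2 (0.0521). The Mt2 call ended without knockout replicate 1 (0.0543), 2 (0.0715) or 3 (0.0579) or wild type replicate 1 (0.0781), and with median centring (0.0602).

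NADPH, the electron donor of GSR, TXNRD1 and NQO1, is supplied by enzymes of which 10 were tested; 1 rose, 1 fell and 8 did not pass, with a median change of -0.09. Aldh1l1, which makes NADPH from formyl-tetrahydrofolate, rose 3.29-fold, from 6.65 ± 0.10 to 8.36 ± 0.16 (change 1.72, SE 0.10, adjusted p = 3.61e-06). Taldo1, the transaldolase of the pentose phosphate pathway and a known NRF2 target, fell by 0.52 (change -0.52, SE 0.10, adjusted p = 0.00581). Idh1, the cytosolic isocitrate dehydrogenase, had a change of -0.24 (SE 0.10, adjusted p = 0.147).

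Detoxification genes known as NRF2 targets in mouse liver were changed in both directions: of 28 tested, 7 rose, 5 fell and 16 did not pass, with a median change of 0.06. The rises were led by Gstm3, a glutathione S-transferase (1.66, SE 0.13, adjusted p = 1.04e-05), and the carboxylesterase gene Ces1g (1.33, SE 0.10, adjusted p = 1.04e-05). The other rises, named after their values were seen, were Vldlr (0.79), the glutathione transferase genes Gsta3 (0.69), Gstm2 (0.66) and Mgst1 (0.30), and the carboxylesterase gene Ces2g (0.49). The Mgst1 call ended without knockout or wild type replicates 1, 2 or 3 (0.059 to 0.0794), with median centring (0.0627) and with no filter (0.0627). The falls were led by the efflux pump gene Abcc4 (-2.09, SE 0.16, adjusted p = 9.91e-06). The other falls, named after their values were seen, were Cbr3 (-0.79), Ugt2b35 (-0.76), Abcc2 (-0.52) and Aldh3a2 (-0.49). The knockout mean of Cbr3, a carbonyl reductase gene, was 3.09, below the level of 3.32 used to filter dim genes, so the size of its change is uncertain. The Ugt2b35 call ended without wild type replicate 1 (0.0572) or 3 (0.0502), and that of Aldh3a2 when the row of largest spread was used (0.073).

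Over the 7 pathway lists together 105 genes were tested, of which 18 rose and 13 fell. That is 29.5% called, beside 13.8% of all genes, and the median size of change was 0.19 beside 0.14. By list, the share called was 14.3% for regulators, 27.8% for glutathione, 26.7% for thioredoxin and 27.3% for superoxide and peroxide removal. In the last of these the called genes were Selenop, Pon1 and Mt2, not those for catalase or the superoxide dismutases. The share was 20% for NADPH supply, 33.3% for haem and iron and 42.9% for detoxification. The lists were written from textbook knowledge with earlier results of these data known, so nothing is claimed for them beyond these counts.

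**Figure D3:**
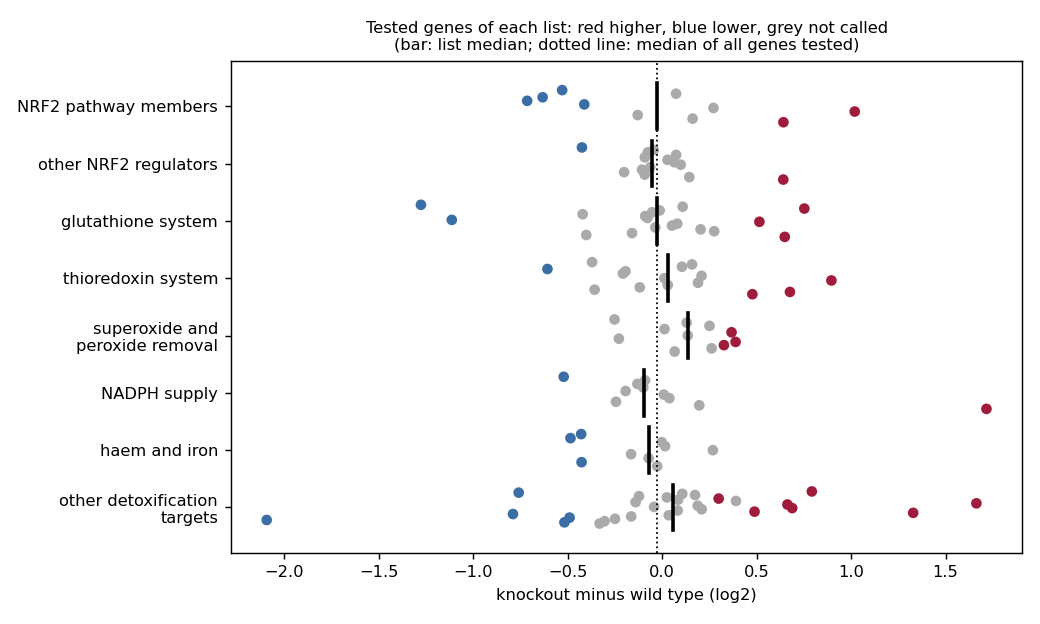
Knockout minus wild type (log2) of every tested gene in the member list and the 7 related lists; red and blue points were called higher and lower, grey points were not called, short black bars are list medians and the dotted line is the median of all genes tested (-0.02). List medians lie between -0.09 and 0.14, with called genes on both sides in 6 of the 8 lists.

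Markers of cell types moved with these results on the same arrays. Of 26 tested markers of mature hepatocytes 20 rose and none fell, and the mean of their log2 values ran from 9.55 to 9.70 in wild type and from 10.34 to 10.45 in the knockout. The most highly expressed, Alb (0.03, adjusted p = 0.85) and Ttr (0.19, adjusted p = 0.165), were not called. Of 25 endothelial markers 20 fell and none rose (list means of 5.31 to 5.41 against 4.39 to 4.51), with Cdh5 at -2.03 and Lyve1 at -1.72. Of 18 markers of Kupffer cells, the macrophages of the liver, 13 fell and 1 rose (5.06 to 5.21 against 4.34 to 4.40), with Cd68 at 0.58 and C1qa at -0.38. Of 19 stellate and fibroblast markers 6 fell and 2 rose (5.01 to 5.11 against 4.60 to 4.70), the risers being Reln at 0.99 and Vim at 0.38. Of 6 tested bile duct markers 1 rose, Cldn4 at 1.15, and 1 fell, Aqp1 at -0.92, named after its value was seen, while Sox9 at -0.12 was not called. None of 5 tested lymphocyte markers was called, Nkg7 and Cd3e having changes of 0.06 and -0.06. The share called was 76.9% for hepatocyte, 80% for endothelial, 77.8% for Kupffer and 42.1% for stellate markers, beside 13.8% of all genes. For bile duct markers it was 33.3%.

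The calls of C1qa and Vim were close to the threshold, that of C1qa ending without knockout replicates 1 or 2 or wild type replicates 2, 3 or 4 (0.0525 to 0.0802), with median centring or with no filter, and that of Vim with no filter or without knockout or wild type replicates 1, 2 or 3 (0.0642 to 0.0909). In RNA of a whole culture, fewer cells of a type and less RNA per cell cannot be told apart. The part of these marker shifts in the changes of the 10 members was not tested. Hmox1 and Gclc were higher in the knockout, and Nfe2l2, Nqo1, Txnrd1 and Osgin1 were lower. Between the same groups the hepatocyte list mean differed by 0.76 and the endothelial list mean by -0.92. The Kupffer list mean differed by -0.74 and the stellate list mean by -0.42.

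**Figure D4:**
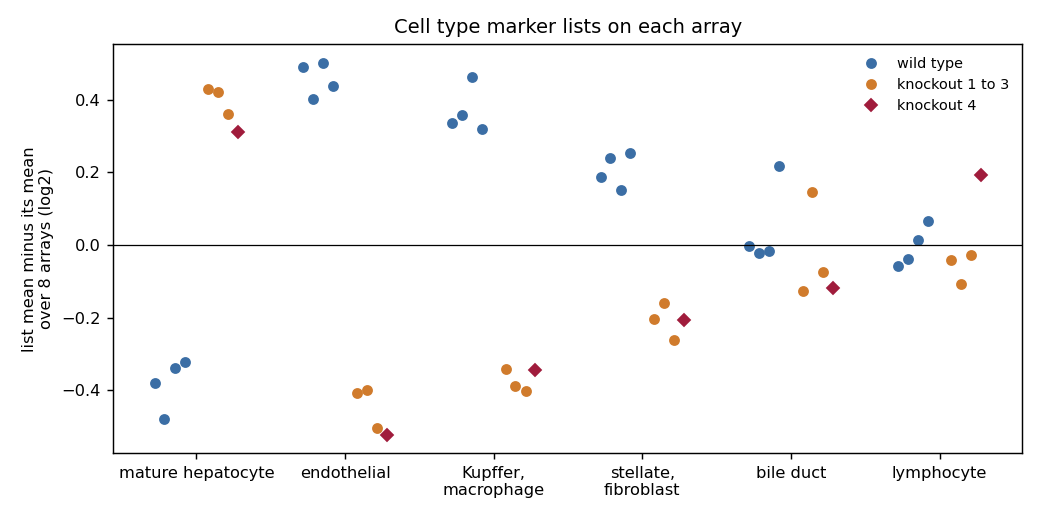
Mean log2 value of the tested markers of each cell type on each array, minus the list's mean over all 8 arrays; blue circles are wild type, orange circles knockout replicates 1 to 3 and red diamonds knockout replicate 4. The hepatocyte list is higher on all 4 knockout arrays and the endothelial, Kupffer and stellate lists are lower on all 4, while the bile duct and lymphocyte lists overlap.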

How the data were processed

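Total RNA of 8 hepatocyte cultures, 4 p16 wild type and 4 p16 knockout, was hybridised to Affymetrix arrays. The authors deposited log2 expression values made with RMA through the oligo package, per the submitters' processing notes. The sources used here give no versions. RMA brings all arrays to a like distribution, which takes out any shift common to every gene and shrinks changes near background. Of 41345 rows, 23521 carried 1 gene symbol and cover 22180 genes; 1082 genes had several rows, and the row of highest mean was kept. Genes with a mean above the 40th percentile of rows (3.32) were tested, 15380 in all. The test was limma's moderated test (version 3.58.1, R 4.3.3; lmFit, then eBayes with no trend). Its p-values were adjusted by Benjamini and Hochberg's method over the 15380 genes, and 2119 fell under 0.05. Arrays have no read depth, and 4 per group limit the precision.

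Named were the 10 members; the 3 genes of smallest p in each pathway list and every called NRF2 regulator; the 2 markers of highest mean per cell type; and the 4 genes most like the member of largest change. Members and lists were chosen with earlier results of these data known. List genes without a row of 1 symbol were not analysed here. Calculations outside R used Python 3.11.15. The alternatives were other filters, row rules, normalizations and variance models, array weights, a replicate block and leaving out each array.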

Additional observations from a re-analysis of the deposited data

Results flagged for a closer look

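Within groups of 4 arrays, 6 of 138 groups of values checked held an array farther from the others than Dixon's 95% limit allows, and chance flags about 1 in 20. Gclc in knockout replicate 4 was at 10.1204, below the 10.292 to 10.321 of the other knockout arrays. Osgin1 in knockout replicate 4 was at 7.9165, below 8.5453 to 8.6288. Txnrd1 in wild type replicate 1 was at 10.7897, above 10.6261 to 10.6386. Ttr in knockout replicate 1 was at 12.954, below 12.9755 to 12.9789. Lyve1 in wild type replicate 2 was at 7.903, below 8.0915 to 8.1178. The bile duct list mean of wild type replicate 4 was 6.191, above 5.9504 to 5.9695.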

How the results depend on the processing

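All 19 alternatives kept the direction of all 10 members. The same 6 members were called in every alternative except those without wild type replicate 1 or 2, which lost Osgin1; leaving out 1 array gave 5 to 6 called members and 1448 to 2165 called genes. Changes ranged from 0.88 to 1.10 for Hmox1, 0.58 to 0.71 for Gclc, -0.44 to -0.37 for Nfe2l2, -0.81 to -0.63 for Nqo1, -0.55 to -0.49 for Txnrd1 and -0.70 to -0.47 for Osgin1. The 60th percentile filter added Keap1, for 7 members, with 2456 of 10903 genes called. Over the pathway lists 26 to 33 genes were called when 1 array was left out. Among the other 53 named genes, 938 of 1004 values kept direction and call, 45 lost the call, 13 gained it and 8, none of them called, changed sign: Nkg7 (-0.000117 with array weights, and -0.050288 to 0.181319 when 1 array was left out), Cd3e (-0.128379 to 0.022524 when 1 array was left out) and Cdkn2a (-0.018124 with array weights, and -0.1216 to 0.093179 when 1 array was left out); the cause was not tested. Arrays that share a number correlated at 0.06, 0.02, 0.26 and 0.21 in their deviations from the group means, so the numbers were not taken to pair them; wild type replicates 1 and 2 correlated best with another number. With the replicate block 2215 genes and the same 6 members were called, and 34 pathway genes.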
